A study of Mus musculus with 6 samples.

Results

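Interferon-stimulated genes and guanylate-binding protein (GBP) GTPases were followed in plasma cells and B cells through a list of 42 mouse gene symbols. The list holds antiviral effectors, sensors of foreign nucleic acid, enzymes of the ISG15 system, and the GBP and immunity-related GTPase (IRG) families. A member was measured where a probe set carried its symbol and no other, and its brightest probe set over the 6 arrays stood for it. This gave 38 of the 42 members among 18193 genes, while Isg15, Gbp4, Gbp9 and Ifi44 had no probe set of their own and have no values here.

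All 6 samples came from C57BL/6 mice and were hybridised to 1-colour Affymetrix arrays, 3 per group. The plasma cells were bone marrow cells sorted as B220- CD138+ on day 7 after the mice were boosted with KLH, the mollusc protein hemocyanin used as an antigen, following enrichment on magnetic beads against CD138. The B cells were spleen cells sorted as B220+ CD23+, described as naive. Each plasma cell array used 50000 to 70000 cells and each B cell array 2000000 to 3000000, and RNA of all samples was amplified with the same kit. Tissue, boost, bead enrichment and input changed together with the cell type, and their effects cannot be told apart.

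Interferon-stimulated genes are switched on when type I interferon binds its receptor, made of Ifnar1 and Ifnar2, and the kinases Jak1 and Tyk2 activate a complex that holds Stat2 and Irf9. That complex binds the interferon-stimulated response element (ISRE), whereas interferon gamma acts at the gamma-activated site (GAS) and drives the GBP and IRG families most strongly. Many of these genes also have a basal level without infection, and some are set by the cell's own lineage programme, as known for Bst2 in plasma cells.

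The arrays followed the sort gates. The CD138 gene Sdc1 averaged 12911 ± 282 in plasma cells and 1072 ± 107 in B cells (SD, n = 3 each), and the CD23 gene Fcer2a averaged 48.1 ± 3.99 in plasma cells and 6032 ± 868 in B cells. B cell array 1 stood apart from the other B cell arrays. It correlated with them at r = 0.933 and 0.926 over all probe sets other than controls, against 0.992 between B cell arrays 2 and 3 and 0.985 to 0.989 among the plasma cell arrays. The T cell gene Cd3e read 1965 on it and 27.2 and 36.5 on the other B cell arrays. The summed T and NK cell markers (7 genes) were 864, 923 and 1578 on plasma cell arrays 1, 2 and 3, and 4620, 204 and 253 on B cell arrays 1, 2 and 3. Granulocyte markers summed to between 8433 and 19932 in plasma cells, and to 12502, 2765 and 1774 in B cells. The X-inactivation transcript Xist was high on all plasma cell arrays (8070 to 8702) and on B cell array 1 (8408), and low on B cell arrays 2 and 3 (30.8 and 18.1), so the female or male pattern was split within the B cell group and moved with that array. Values without B cell array 1 are therefore given below wherever they bear on a result. In those values the female or male pattern differs fully between plasma cells and B cells. Its effect there cannot be told apart from that of the cell type.

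Levels are deposited intensities, and log2 fold changes are plasma cells minus B cells on the scale log2(intensity + 16), which understates changes of dim genes. A gene was called where limma's adjusted p over all 18193 genes was under 0.05. In plasma cells 16 of the 38 measured members were lower, where 12.3% of all genes were, and 4 were higher, where 17.6% of all genes were. Together these were 20 members, against 29.9% of all genes. Of the members that were called, 11 were lower by at least 2-fold (6.78% of all genes) and 3 were higher by at least 2-fold (10.9% of all genes). Ifit1 (-0.77) and Dhx58 (-0.88) fell by less than 2-fold without B cell array 1, and Parp14 (-1.02) by more, each still called. The majority direction was thus lower in plasma cells, and Isg20, Bst2, Zbp1 and Igtp were called against it. The median log2 fold change was -0.53 over the members and -0.06 over all genes. The individual arrays of the groups did not overlap for 29 of the 38 members, where they did not for 47.8% of all genes. Of these members 22 lay lower and 7 higher in plasma cells, against 22.4% and 25.4% of all genes. Without B cell array 1, 20 members were called lower and 7 higher, against 21.1% and 22.7% of all genes, and the median was -0.56 for members and 0.01 for all genes.

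**Figure D1:**
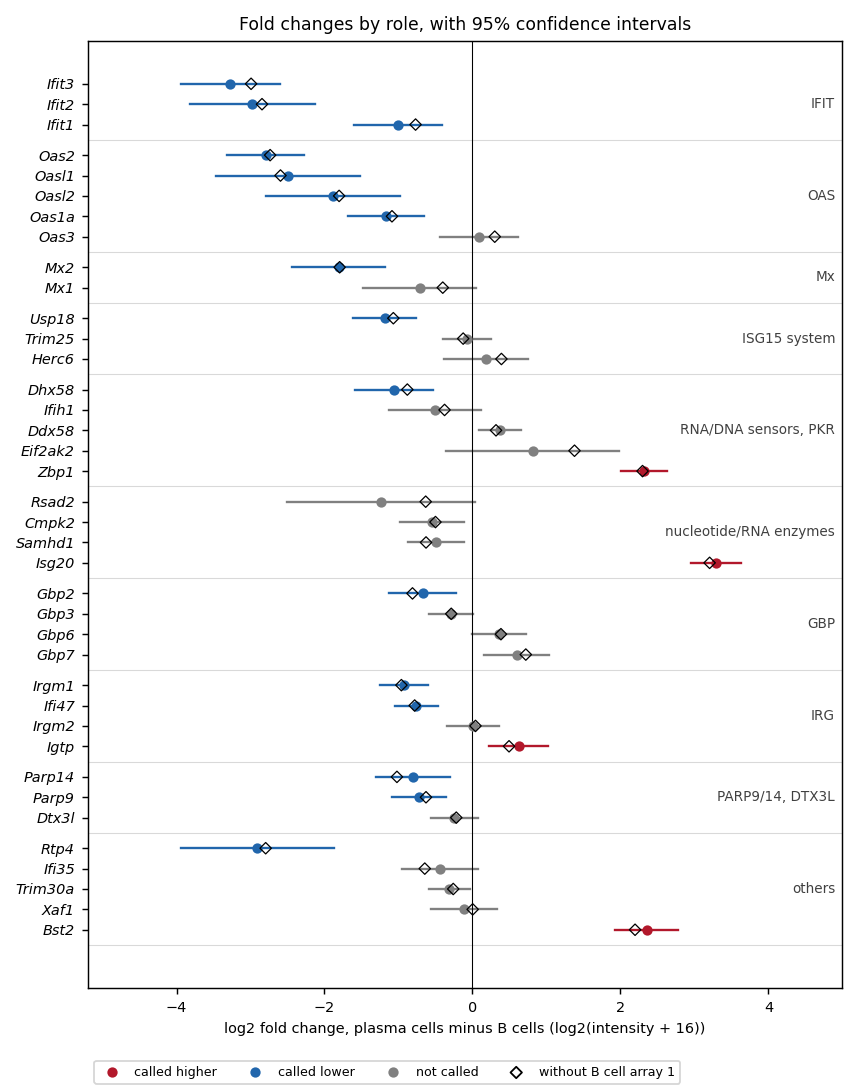
Log2 fold change (plasma cells minus B cells, log2(intensity + 16) scale) of the 38 measured members with 95% confidence intervals, grouped by role and coloured by call, with open diamonds for values without B cell array 1. The members run between Ifit3 at -3.27 and Isg20 at 3.29, with 16 called lower and 4 called higher.

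The 3 Ifit genes, which encode proteins that bind foreign RNA and hold back its translation, were all lower in plasma cells. Of all genes, 12.3% were lower. Ifit3 read 57.4, 59.8 and 81.2 in plasma cells, against 1141, 616 and 648 in B cells. The groups lay far apart, and B cell array 1 was the highest of all. The log2 fold change was -3.27 ± 0.27 (SE, adjusted p = 0.000473), and -2.99 without B cell array 1. Ifit2, which sits beside Ifit3 on chromosome 19, read 52.6, 23.1 and 79.4 in plasma cells, against 580, 428 and 453 in B cells. Its log2 fold change was -2.97 ± 0.34 (adjusted p = 0.00153), and plasma cell array 2 lay below the background of bacterial control probe sets. Ifit1, which recognises RNA without the host's cap methylation, differed less, with 143, 111 and 145 in plasma cells, against 397, 224 and 250 in B cells. Its fall by 1.01 ± 0.24 on the log2 scale (adjusted p = 0.0248) missed the threshold when any 1 plasma cell array or B cell array 3 was left out, at adjusted p between 0.0543 and 0.0918.

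Ifit3 and Ifit1 carry 2 matches each to the ISRE letters (GAAA, 2 bases of any kind and GAAA again, on either strand) near their starts. The RefSeq window of Ifit3 (GRCm38.p6, chr19:34583279-34583578, plus strand, 250 bases before to 50 after the start) and the 2 sites of Ifit1 (chr19:34640775-34640804 and chr19:34640794-34640823, plus strand) are shown 5′ to 3′, with the ISRE letters in capitals.
Ifit3 window: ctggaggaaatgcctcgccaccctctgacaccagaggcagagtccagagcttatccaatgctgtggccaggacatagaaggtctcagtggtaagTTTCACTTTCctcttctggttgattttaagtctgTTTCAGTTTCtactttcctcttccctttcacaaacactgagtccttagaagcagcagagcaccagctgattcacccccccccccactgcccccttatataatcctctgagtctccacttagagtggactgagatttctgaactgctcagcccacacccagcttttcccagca
Ifit1 site at -104: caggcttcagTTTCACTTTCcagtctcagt
Ifit1 site at -85: ccagtctcagTTTCAGTTTCtcactgctga
Positions are those of the first ISRE base relative to the start. In Ifit3 the matches begin at -156 and -122, and in Ifit1 they lie 19 bases apart. Ifit2, which fell nearly as much as Ifit3, had 0 ISRE matches in its 2 windows.

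Among the oligoadenylate synthetases, whose product activates the RNA-cutting RNase L, 4 of 5 members were lower in plasma cells. Of all genes, 12.3% were lower. Oas2 read 55.2, 47.4 and 87.8 in plasma cells, against 568, 478 and 525 in B cells, a log2 fold change of -2.79 ± 0.21 (adjusted p = 0.000345). Its direct neighbour on chromosome 5, Oas3, read 156, 124 and 141 in plasma cells, against 181, 109 and 111 in B cells. These Oas3 values overlapped, and its log2 fold change was 0.09 (95% confidence interval -0.44 to 0.62). Oasl1, a family member without synthetase activity that in mouse holds back Irf7 translation, had 32.4, 55.9 and 127 in plasma cells, against 372, 452 and 473 in B cells (-2.49 ± 0.40, adjusted p = 0.00538). Oasl2 had 47.1, 50.3 and 140 in plasma cells, against 343, 277 and 296 in B cells (-1.88 ± 0.37, adjusted p = 0.0119). Oas1a had 313, 225 and 375 in plasma cells, against 772, 637 and 666 in B cells (-1.17 ± 0.21, adjusted p = 0.00829). No plasma cell value of Oas2, Oasl1, Oasl2 or Oas1a reached the lowest B cell value.

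The dynamin-like Mx GTPases trap viral nucleoprotein. Mx2 had 14.02, 6.69 and 27.7 in plasma cells, against 94.1, 103 and 81.2 in B cells. All 3 plasma cell values were at or below background, so Mx2 was at least 3.03-fold lower there (adjusted p = 0.00345). Mx1, whose allele in C57BL/6 is known to lack several exons, read 493, 518 and 713 in plasma cells, against 1459, 690 and 824 in B cells. Its groups overlapped at 1 array each, and the log2 fold change of -0.71 was not called (adjusted p = 0.148).

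**Figure D2:**
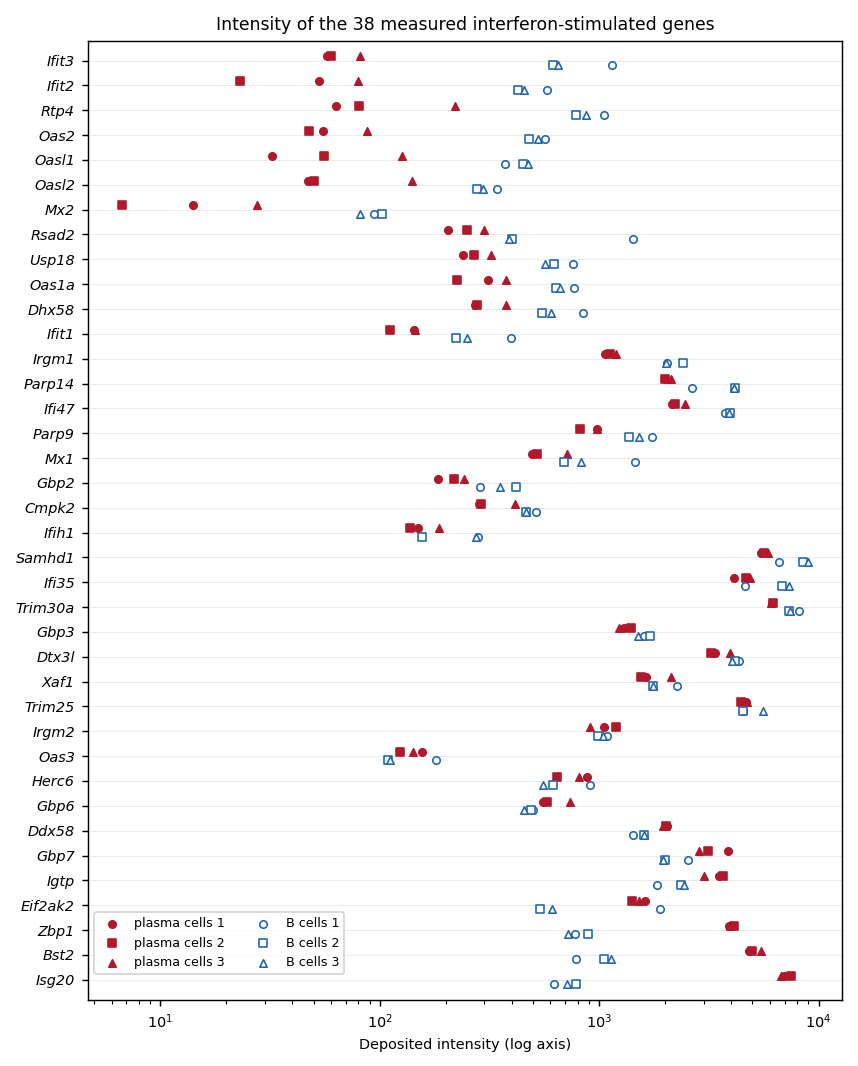
Deposited intensity (log axis) of the measured members on each array, 1 symbol shape per array number, with filled plasma cell points drawn above open B cell points for every gene. Ifit3, Ifit2 and Oas2 lie between 23.1 and 87.8 in plasma cell samples and between 428 and 1141 in B cell samples, and Isg20, Bst2 and Zbp1 show the opposite order.

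The ISG15 system attaches the ubiquitin-like protein Isg15 to other proteins. Usp18, which removes Isg15 and blocks signalling at Ifnar2, had 241, 268 and 320 in plasma cells, against 763, 622 and 566 in B cells. It was lower on every plasma cell array than on any B cell array (-1.19 ± 0.17, adjusted p = 0.00377). Herc6, the main Isg15 ligase in mouse, and the ligase Trim25 were not called, at log2 fold changes of 0.18 and -0.08. One of the other 3 Herc6 probe sets was called higher, at 0.74 (adjusted p = 0.021 in a fit over all probe sets), and another was at -0.19 without a call.

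The sensors of foreign nucleic acid and the kinase PKR did not move together. Dhx58, the helicase LGP2, read 273, 279 and 376 in plasma cells, against 846, 551 and 604 in B cells, and was called lower (-1.06 ± 0.22, adjusted p = 0.0141). Leaving out plasma cell array 1 or 2 took its adjusted p to 0.0616 or 0.0606. Zbp1, which senses Z-form nucleic acid and can start necroptosis, read 3914, 4113 and 3961 in plasma cells, against 773, 886 and 721 in B cells. It was called higher with little spread (2.31 ± 0.13, adjusted p = 0.000117), and its other probe set was also called, at the smaller value of 0.77. The RNA helicases Ifih1 (MDA5, -0.51) and Ddx58 (RIG-I, 0.38) were not called, and the 3 probe sets of Ddx58 lay between -0.40 and 0.38. Ddx58 read 2038, 2012 and 1955 in plasma cells, against 1422, 1606 and 1598 in B cells, so its groups did not overlap, and without B cell array 1 it was called higher (0.32, adjusted p = 0.0278).

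Eif2ak2, the gene of PKR, which stops translation on double-stranded RNA, read 1621, 1415 and 1519 in plasma cells, against 1891, 540 and 608 in B cells. The plasma cell values lay between B cell array 1 and the other B cell arrays. With all arrays its log2 fold change was 0.81 (adjusted p = 0.262), and without B cell array 1 it was 1.38 (adjusted p = 0.000684). Another Eif2ak2 probe set was called higher with all arrays, at 0.72.

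Among the 4 nucleotide and RNA enzymes 1 was called, where 29.9% of all genes were, and it ran against the majority. Isg20, an exonuclease that degrades RNA, read 6930, 7511 and 6726 in plasma cells, against 625, 787 and 714 in B cells. Its log2 fold change of 3.29 ± 0.14 (adjusted p = 5.28e-05) was the largest rise among the members. Rsad2, viperin, which makes a chain-terminating nucleotide, read 205, 250 and 300 in plasma cells, against 1422, 399 and 389 in B cells. The groups did not overlap, yet B cell array 1 was 3.60 times the mean of the other B cell arrays and the log2 fold change of -1.23 ± 0.52 was not called (adjusted p = 0.135). Without that array the fall was by 0.63 and was called (adjusted p = 0.0354).

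Cmpk2, a mitochondrial nucleotide kinase next to Rsad2 on chromosome 12, read 283, 289 and 415 in plasma cells, against 514, 466 and 464 in B cells, without a call (-0.55, adjusted p = 0.0685). Samhd1, which breaks down deoxynucleotides, read 5441, 5643 and 5869 in plasma cells, against 6640, 8510 and 8965 in B cells. Its brightest probe set was at -0.50 (adjusted p = 0.0578), and without B cell array 1 at -0.63 (adjusted p = 0.00397). Its 5 probe sets ran between -1.71 and -0.02, and 2 of the others were called lower.

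The remaining antiviral members included the third gene called at least 2-fold higher. Bst2, tetherin, holds budding virus on the cell surface and is a known surface marker of plasmacytoid dendritic cells and plasma cells. It read 4804, 4989 and 5453 in plasma cells, against 786, 1057 and 1131 in B cells, a log2 fold change of 2.35 ± 0.17 (adjusted p = 0.000303). Siglech, a defining gene of plasmacytoid dendritic cells, read 140, 69.9 and 174 in plasma cells, against 79.2, 61.3 and 70.5 in B cells, so it was at most 174 in either group, with plasma cell array 2 under B cell arrays 1 and 3. The summed dendritic cell markers, of which Bst2 itself is one, were 16535, 15998 and 18190 in plasma cells, against 12490, 14420 and 14861 in B cells. Since the sum holds Bst2, and also Irf8, which was lower in plasma cells (-2.11), it cannot show how many dendritic cells were present. The part of other cell types in the Bst2 value was not tested.

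Rtp4, a receptor transporter protein, moved the other way, with 63.2, 80.4 and 220 in plasma cells, against 1054, 785 and 874 in B cells (-2.91 ± 0.42, adjusted p = 0.00375). Its other probe set was called lower as well, at -2.21. Ifi35 (-0.44), Trim30a (-0.31) and Xaf1 (-0.12) were not called, although all were well above background. Trim30a and Ifi35 were called lower without B cell array 1, at adjusted p = 0.0488 and 0.0084.

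**Figure D3:**
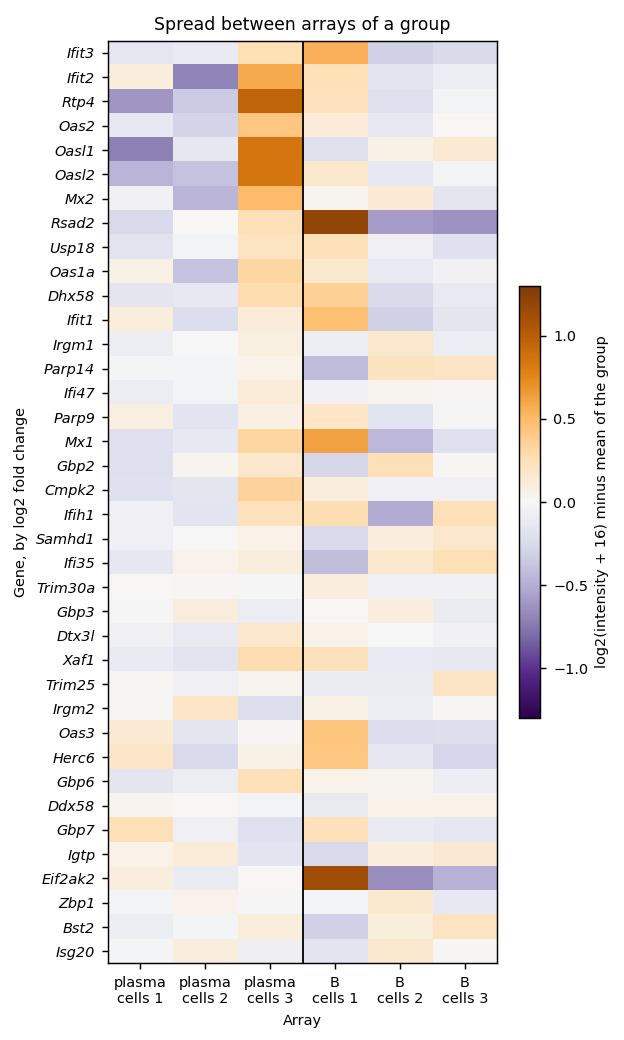
Deviation of each member from its group mean (log2(intensity + 16) scale) on each array as a colour, plasma cells left of B cells and genes ordered by log2 fold change. The median deviation is 0.12 on plasma cell array 3 and 0.10 on B cell array 1, and orange cells mark values above the group mean.

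The poly-ADP-ribose polymerase group, in which Parp9 acts as a complex with the ubiquitin ligase Dtx3l, showed smaller differences. Parp9 read 983, 822 and 974 in plasma cells, against 1748, 1363 and 1513 in B cells (-0.72 ± 0.15, adjusted p = 0.0151). Parp14 read 1997, 1993 and 2117 in plasma cells, against 2664, 4176 and 4113 in B cells (-0.81 ± 0.20, adjusted p = 0.0296). The lowest B cell value of Parp14 was that of array 1. Dtx3l lies between these genes on chromosome 16 and was not called (-0.25, adjusted p = 0.215). The Parp14 call was lost without any 1 array other than B cell array 1, at adjusted p between 0.0792 and 0.0999, and the Parp9 call without plasma cell array 2 (adjusted p = 0.0639).

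The IRG proteins are GTPases that mark and attack the vacuoles of intracellular pathogens. Irgm1, a regulator that protects the cell's own membranes, read 1062, 1124 and 1198 in plasma cells, against 2041, 2410 and 2021 in B cells (-0.92 ± 0.13, adjusted p = 0.00337). Ifi47, an effector of the family, read 2152, 2227 and 2470 in plasma cells, against 3735, 3957 and 3898 in B cells (-0.76 ± 0.12, adjusted p = 0.00481). Both were thus lower in every plasma cell sample. Igtp, also known as Irgm3 and a regulator like Irgm1, went against them, with 3524, 3657 and 2998 in plasma cells, against 1831, 2355 and 2435 in B cells (0.62 ± 0.17, adjusted p = 0.0353). Its call was lost without any 1 array other than B cell array 1, at adjusted p between 0.0551 and 0.124. Irgm2, its direct neighbour on chromosome 11, read 1055, 1197 and 905 in plasma cells, against 1083, 986 and 1046 in B cells. Those values overlapped, with a log2 fold change of 0.01 (95% confidence interval -0.34 to 0.36).

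The ISRE sites of the 3 Irgm-type members are shown 5′ to 3′ because these related genes share the letters and differ in direction (RefSeq, GRCm38.p6; Irgm1 chr11:48871425-48871460, minus strand; Igtp chr11:58199512-58199541 and Irgm2 chr11:58214903-58214932, plus strand). Capitals mark the ISRE letters.
Irgm1 site: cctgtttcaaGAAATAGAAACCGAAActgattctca
Igtp site: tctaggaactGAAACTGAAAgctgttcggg
Irgm2 site: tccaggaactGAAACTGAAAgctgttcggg
The Igtp and Irgm2 sites were identical at 29 of 30 bases, and both had a match to the GAS letters (TTCNNNGAA, which reads the same on both strands) beginning 11 bases before the ISRE. Igtp was called higher in plasma cells and Irgm2 was not called, and the Irgm1 site held 2 overlapping ISRE matches beside a fall.

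The GBPs are larger interferon-induced GTPases that coat pathogens and their vacuoles. Of 4 measured GBPs, Gbp2 alone was called, a count near the 29.9% called over all genes. Gbp2 read 184, 219 and 241 in plasma cells, against 287, 420 and 355 in B cells (-0.67 ± 0.18, adjusted p = 0.0394). Its other probe set gave -0.80 and was also called, while the brightest lost its call without any 1 array other than B cell array 1 (adjusted p between 0.0677 and 0.135). Gbp3 read 1300, 1404 and 1230 in plasma cells, against 1605, 1710 and 1499 in B cells, without a call (-0.29, adjusted p = 0.138). Gbp7, its direct neighbour on chromosome 3, read 3873, 3135 and 2852 in plasma cells, against 2538, 1994 and 1948 in B cells. It was higher in every plasma cell sample but narrowly missed the threshold (0.60, adjusted p = 0.0515), and was called without B cell array 1 (adjusted p = 0.0168). Gbp6 read 555, 581 and 738 in plasma cells, against 501, 488 and 455 in B cells. Its brightest probe set was not called (0.36, adjusted p = 0.135), whereas the other one was, at 1.05.

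The GBPs on chromosome 3 each hold an ISRE match in a RefSeq window, and the sites are shown 5′ to 3′ in the same way for comparison with their fold changes (GRCm38.p6, plus strand; Gbp2 chr3:142620594-142620623, Gbp3 chr3:142559989-142560024, Gbp7 chr3:142530273-142530302).
Gbp2 site: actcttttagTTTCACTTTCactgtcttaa
Gbp3 site: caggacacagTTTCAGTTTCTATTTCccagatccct
Gbp7 site: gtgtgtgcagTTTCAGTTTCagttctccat
The matches begin at -59, -45 and -53 relative to the start in Gbp2, Gbp3 and Gbp7, so the position was alike in genes with log2 fold changes of -0.67, -0.29 and 0.60.

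Across the promoter windows, ISRE letters were present in 17 of the 30 members that had a window (56.7%), against 3.63% of 14452 tested genes with one. GAS letters were present in 10 of 30 (33.3%), against 8.57% of tested genes. ISRE letters occurred in 5 of 9 members called lower, in 2 of 3 called higher and in 9 of 16 not called. GAS letters occurred in 2 of 9 members called lower, in 3 of 3 called higher and in 5 of 16 not called. Among all tested genes with a window, those with ISRE letters had a median log2 fold change of -0.05 (n = 524), the same to 2 decimals as those without (-0.05, n = 13928). Of the risen members Zbp1 had no window. The other 3 each had GAS letters but differed in ISRE letters. Bst2 had 2 overlapping ISRE matches and Isg20 none in its 3 windows. For Isg20 the GAS letters lay in 1 of these 3 windows, and a gene with several windows has more room for a match. The difference in GAS letters between members called higher and lower was not tested. A match describes these letters only, and letters outside the windows were not read. The window of Bst2 (GRCm38.p6, chr8:71537423-71537722, minus strand) and that of Isg20 which holds a GAS match (chr7:78913174-78913473, plus strand) are shown 5′ to 3′ as the pair of most strongly risen members, with ISRE letters in capitals.
Bst2 window: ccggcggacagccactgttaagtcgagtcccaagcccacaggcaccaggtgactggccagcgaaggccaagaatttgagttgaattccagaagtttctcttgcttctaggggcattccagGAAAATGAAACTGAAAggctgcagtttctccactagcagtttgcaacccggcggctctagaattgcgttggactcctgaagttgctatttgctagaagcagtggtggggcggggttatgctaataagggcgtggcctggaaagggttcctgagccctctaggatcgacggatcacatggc
Isg20 window: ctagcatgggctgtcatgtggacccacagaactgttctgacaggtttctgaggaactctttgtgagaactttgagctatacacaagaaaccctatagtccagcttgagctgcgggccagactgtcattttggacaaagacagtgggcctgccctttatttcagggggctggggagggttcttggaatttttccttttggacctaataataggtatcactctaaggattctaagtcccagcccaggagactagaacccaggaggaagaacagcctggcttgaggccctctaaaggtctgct
In the Bst2 window the ISRE matches begin at -130 and -124 and a GAS match that overlaps the first of them at -136, and in the Isg20 window the GAS match begins at -73.

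**Figure D4:**
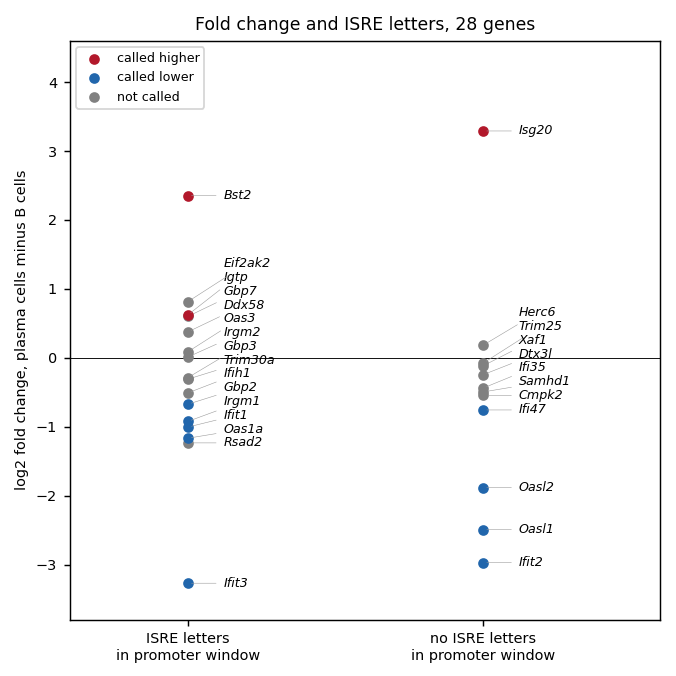
Log2 fold change (plasma cells minus B cells, vertical axis) of the 28 measured members with a RefSeq window, parted by whether a window holds ISRE letters and coloured by call. ISRE letters occur in 5 of 9 members called lower, 2 of 3 called higher and 9 of 16 not called.

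The members also varied within each group in a shared way. Plasma cell array 3 was the highest plasma cell array for 26 of the 38 members (68.4%), against 39.7% of all genes. It was the highest for all 11 members called at least 2-fold lower, at 1.14 to 3.06 times the mean of plasma cell arrays 1 and 2 (median 1.71). Oasl1, Rtp4 and Oasl2 were the clearest cases, with 127, 220 and 140 on that array and at most 80.4 on the others. The same array had the highest sum of T and NK cell markers among the plasma cell arrays. Its background was also the highest of them, at 41.8 against 26.8 and 25.3 on plasma cell arrays 1 and 2. Some of the members that fell, such as Mx2 and Ifit2, were near background in plasma cells. The part of these differences in the members' values was not tested. In B cells, array 1 was the highest for 23 of the 38 members (60.5%), against 43.7% of all genes. Rsad2 and Eif2ak2 alone were at least 2-fold above the mean of B cell arrays 2 and 3 there, against 22.9% of all genes, and no member was at least 2-fold below it, against 8.51% of all genes.

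The genes that carry the interferon signal were examined as a list of 9 receptors and kinases. Of these 4 were lower and 2 higher in plasma cells, against 12.3% and 17.6% of all genes, so the number higher was near that share. Ifnar2, the chain of the type I receptor that binds interferon most tightly, read 2920, 3036 and 2730 in plasma cells, against 358, 500 and 509 in B cells (2.64 ± 0.17, adjusted p = 0.000195). Its partner chain Ifnar1 read 1979, 1732 and 2008 in plasma cells, against 2025, 2276 and 2435 in B cells, without a call (-0.23, adjusted p = 0.253). One chain was thus called higher and the other had a confidence interval of -0.56 to 0.10, and the difference between the chains was not tested. Both chains of the interferon gamma receptor were lower, Ifngr1 at -1.20 (adjusted p = 0.00331) and Ifngr2 at -1.45 (adjusted p = 0.00121). The kinase Jak1, shared by both receptors, read 1368, 1318 and 1286 in plasma cells, against 3898, 5799 and 5477 in B cells (-1.90 ± 0.18, adjusted p = 0.000767). Tyk2, the Ifnar1-associated kinase, was higher at 0.79 (adjusted p = 0.0435).

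Of 9 measured transcription factors of the pathway, 3 were called lower, where 12.3% of all genes were, and the other 6 were not called. Stat2 read 411, 474 and 477 in plasma cells, against 707, 889 and 822 in B cells (-0.80 ± 0.14, adjusted p = 0.00797). Irf9, the DNA-binding part of the complex with Stat2, read 1048, 1159 and 1240 in plasma cells, against 2018, 2586 and 2484 in B cells (-1.02 ± 0.15, adjusted p = 0.0038). Both were lower on every plasma cell array, and Irf8, a B cell and myeloid factor, was lower too, at -2.11. Irf7 (-0.25) and Irf1 (-0.41), which are themselves interferon-induced, were not called. Without B cell array 1, 5 factors were lower, against 21.1% of all genes, with Irf3 (-0.64, adjusted p = 0.00442) and Irf5 (-0.31, adjusted p = 0.034) added.

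Among 10 sensor adaptors and kinases, Tlr3, Myd88 and Tlr9 were lower and Ikbke was higher, against 12.3% and 17.6% of all genes. Tlr3, the endosomal receptor for double-stranded RNA, read 22.7, 51.4 and 20.1 in plasma cells, against 1291, 984 and 977 in B cells (-4.58 ± 0.28, adjusted p = 0.000158), and 1 plasma cell array lay above background. Without B cell array 1, 6 genes of this list were lower and 1 was higher, against 21.1% and 22.7% of all genes. Mavs (-1.12, adjusted p = 0.00048), Sting1 (-0.61, adjusted p = 0.00431) and Tbk1 (-0.38, adjusted p = 0.0192) were added among the lower ones. Among 7 feedback inhibitors, Socs3 (-2.72, adjusted p = 0.00556) and the phosphatase Ptpn6 (-1.05, adjusted p = 0.00888) were lower and the other 5 were not called. Over all genes 12.3% were lower. Of 6 measured interferon genes 0 were called by limma, where 29.9% of all genes were, and 1 had an unadjusted p under 0.05. This was Ifnb1, named after its values were seen, at 35.4, 40.2 and 57.7 in plasma cells, against 27.1, 23.9 and 8.72 in B cells. Without B cell array 1, Ifnb1 was called higher (0.93, adjusted p = 0.0441), where 22.7% of all genes were. Its values lay near background, which was 26.8, 25.3 and 41.8 on plasma cell arrays 1, 2 and 3. Of the B cell arrays, 1 lay above background for Ifnb1.

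Relatives of the members were counted as well. Of 14 measured relatives of the OAS and IFIT families and Schlafen genes, 9 were lower in plasma cells and the other 5 were not called. Over all genes 12.3% were lower. Ifit1bl1, a paralogue of Ifit1, was lower by 5.57 on the log2 scale, with 35.0, 14.5 and 55.5 in plasma cells, against 2445, 2302 and 2069 in B cells. Slfn5 was at least 11.9-fold lower, at or below background on every plasma cell array, and Slfn8 had a log2 fold change of -2.95. Of 4 measured GBP and IRG relatives, Gbp8 was higher, with 932, 675 and 947 in plasma cells, against 298, 327 and 298 in B cells (1.41 ± 0.17, adjusted p = 0.0018). Irgc1 was at least 3.91-fold lower in plasma cells. These were the only calls of that list, 1 higher and 1 lower, against 17.6% and 12.3% of all genes.

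Of 50 other measured interferon-stimulated genes, 19 were lower and 9 were higher in plasma cells, against 12.3% and 17.6% of all genes, so the number higher was near the share of all genes. Without B cell array 1, 24 were lower and 10 higher, against 21.1% and 22.7% of all genes. Ms4a4c, a membrane protein of the MS4A family, read 67.7, 53.4 and 74.1 in plasma cells, against 6143, 6336 and 6516 in B cells (-6.30 ± 0.14). The helicase gene Ddx60 read 653, 175 and 181 in B cells and was at or below background on every plasma cell array. It was at least 9.01-fold lower with all arrays, a bound that rests in part on B cell array 1. Leaving that array out moved its log2 fold change from -3.43 to -2.84 (adjusted p = 0.00173). Tdrd7 was at -2.23. Among the higher ones, Lgals3bp, a secreted glycoprotein, read 1974, 1671 and 1806 in plasma cells, against 311, 239 and 233 in B cells (2.73 ± 0.16). The chemokine gene Cxcl10 read 371, 294 and 640 in plasma cells, against 44.1, 34.0 and 45.9 in B cells (2.91 ± 0.29), and Gca was at 3.09. In plasma cells, array 3 was again the highest for Cxcl10.

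**Figure D5:**
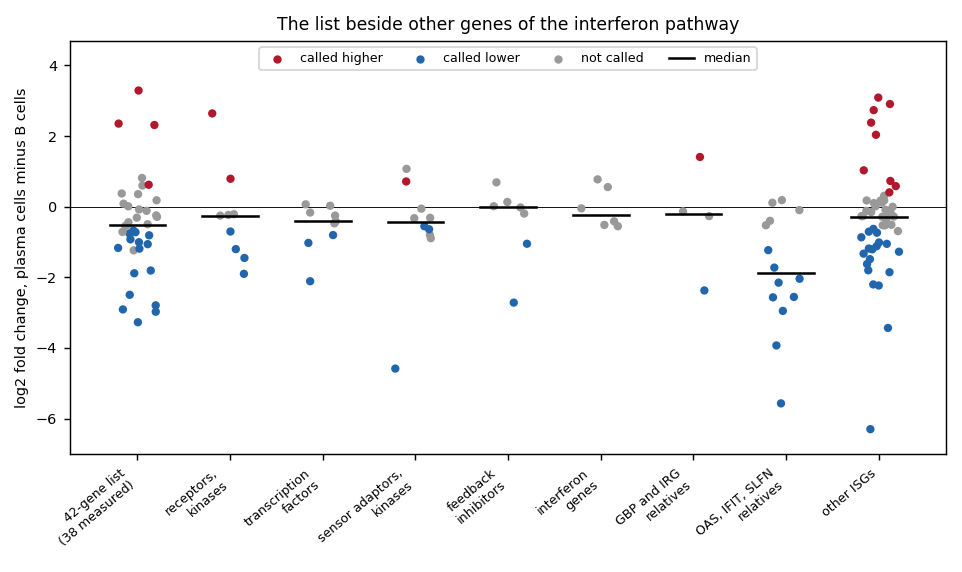
Log2 fold change (plasma cells minus B cells) of the members and of the 8 lists of related genes, 1 point per measured gene coloured by call and a bar at each median. The OAS, IFIT and Schlafen relatives have a median of -1.88 and the other interferon-stimulated genes a median of -0.28.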

How the data were processed

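Expression was measured on 3 plasma cell and 3 B cell arrays. Per the labels, RNA was extracted with a column kit, amplified with NuGEN Ovation V2 and labelled with biotin. The values deposited by the authors are linear intensity values, 1 per probe set and array. Their background correction, probe summary and normalization are not given in the sources used here, and no depth applies, so the number of arrays limits the precision.

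Of 45101 probe sets, 64 were controls. The platform annotation of 2016 gave 1 symbol for 34945, several for 932 and none for 9160. Symbols were updated through Entrez identifiers against RefSeq (34741 matched). Each gene was represented by the probe set with the highest mean log2(intensity + 16). Background was the 95th percentile of 27 bacterial control probe sets on each array (23.0 to 41.8). Where every array of a group lay at or below it, the fold is a bound, computed from means of log2 intensities with the dim group set to that percentile. Plasma cells and B cells were compared with limma 3.58.1 (lmFit, eBayes) in R 4.3.3 over 18193 genes, with Benjamini-Hochberg adjustment and a threshold of 0.05. Levels of different probe sets were not compared. The labels do not name separate animals, so the p-values cover only the spread of these 6 samples, possibly technical. No sample column was left unmatched.

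The members and the lists of related genes and markers were chosen with earlier results of these data known, and every measured member could be named. Of the other lists, up to 3 called genes in each direction with the largest change and no overlap between groups were named, plus Stat2, Irf9, Irf7, Irf1, both interferon receptors' genes and the sort markers. Cd3e, Xist, Siglech, the genes added without B cell array 1 and the values of members not called were added after they were seen. Promoter windows came from RefSeq GRCm38.p6. The fit was tested on simulated data, and 16 alternatives were tried.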

Additional observations from a re-analysis of the deposited data

How the results depend on the processing

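Across 16 alternatives and 38 members, no called member changed sign, and 12 of the 20 called members were called under all 16. With array weights, in which B cell array 1 had a weight of 0.0938, 4840 genes were higher and 4654 lower, and 7 members were higher. Median centring moved the median of all genes by 0.117 and left 1243 genes lower. It ended the calls of Gbp2, Igtp, Irgm1, Ifi47, Parp9 and Parp14, and higher genes then made up 67.6% of all calls. Leaving out 1 array at a time gave between 1347 and 3830 lower genes and between 3 and 7 higher members, and the highest value of each was reached without B cell array 1. With the replicate number as a block, 3 members were higher and 14 lower, and Gbp2 (adjusted p = 0.0528), Igtp (0.0925) and Parp14 (0.0569) were no longer called. In that setting the higher ones made up 17.6% of the calls among members and 59.6% of the calls among all genes. Deviations from the group mean correlated across genes at r = 0.0484, 0.00469 and 0.0458 for same-numbered arrays. For arrays of different number r lay between -0.0441 and 0.0316. Deviations of 3 arrays from their own mean depend on each other, so these values cannot decide whether the numbers pair samples. Outside the calls, Cmpk2 was called without plasma cell array 3 (0.0233) and Ifih1 without B cell array 2 (0.0407). The cause of these changes was not tested. Dim members such as Mx2 are limited by signal over background.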

Other observations

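Members that are direct neighbours in the RefSeq gene order of GRCm38.p6 were set side by side. Of 12 pairs of members with at most 3 genes between them, Ifit2 and Ifit3 on chromosome 19 had log2 fold changes of -2.97 and -3.27, and Oasl2 and Oasl1 on chromosome 5 had -1.88 and -2.49. Other pairs had unlike values. Oas2 and Oas3 on chromosome 5 were at -2.79 and 0.09, Gbp7 and Gbp3 on chromosome 3 at 0.60 and -0.29, and Rsad2 and Cmpk2 on chromosome 12 at -1.23 and -0.55. The gap between Rsad2 and Cmpk2 rested on B cell array 1, without which they were at -0.63 and -0.50. These values have no test of the difference between neighbours.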
